A study of Capra hircus with 29 samples.

Results

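The SLC30 and SLC39 genes that move zinc across membranes were followed in goat oocytes, and the 10 members were the genes whose symbol in the deposited table was SLC30A1, SLC30A5, SLC30A6, SLC30A7, SLC30A9, SLC39A1, SLC39A6, SLC39A7, SLC39A10 or SLC39A14. They came from a table of 21343 gene records and 24 genes of both families. The symbol SLC30A1 was carried by 2 records, so there were 11 records for the 10 symbols. One of those (ENSCHIG00000020896) was listed at 0 in all 29 samples, and the other (ENSCHIG00000011934) gave the values below. Oocytes were of the Ji'ning grey goat, from a high (H) and a low (L) fertility population that had borne larger or smaller litters, and from large (L), medium (M) or small (S) follicles. The 6 groups were HLO, LLO, HMO, LMO and LSO with 5 samples each and HSO with 4 samples, numbered 1, 3, 4 and 5; no agent or altered allele is named for any group. Per the study's methods, oocytes of a stage were pooled (stated for the high fertility group) and then divided into samples of a few oocytes. The goats behind a sample were not recorded. So p-values measure the spread between such samples, which may be partly technical, and not the spread between goats. Values are FPKM, the fragments of a gene scaled by the length of its model and the total of its sample, and the number of reads behind a value is not known from them.

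Zinc transporters belong to 2 families that work in opposite directions. SLC39 (ZIP) proteins bring zinc into the cytosol from outside the cell or from organelles, and SLC30 (ZnT) proteins take it out of the cytosol, to the outside or into the Golgi, vesicles and mitochondria. Mammalian oocytes gather zinc while they mature, need it to hold the arrest of the second meiotic division, and release it in bursts at fertilization.

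The samples carried oocyte RNA, with a summed level of the 11 oocyte markers found in the table (GDF9, BMP15, zona pellucida genes and others) between 637 and 9203 FPKM. ZP3 had the highest median of them, 1274 FPKM. NLRP5 and NOBOX were low, with medians of 0.274 and 0.334 FPKM, and were above 0.5 FPKM in 5 and 8 samples. DPPA3 was not in the table. The summed level of 11 granulosa cell markers was 0.786 to 8.63 FPKM per sample, with GJA1 above 0.5 FPKM in 19 samples and INHBA up to 5.21 FPKM, while AMH and AMHR2 were listed at 0 in all 29. The 7 theca and stroma markers in the table summed to 5.32 to 43.4 FPKM, mostly from DCN (median 7.26 FPKM) and ACTA2 (3.33 FPKM), and INSL3 was listed at 0 in all 29 samples. The 6 leukocyte markers summed to 0.672 FPKM or less. Sample LMO 2 stood apart, with an FPKM sum of 222697 over all genes against up to 490048 in the others. Samples LLO 2 and LLO 5 stood apart on component 2 of a principal component analysis, at 92.7 and 100.5, with HLO 5 next at 20.3. LLO 2 also had the fewest genes above 0.5 FPKM, 6646, and the lowest summed oocyte markers, 637 FPKM. Some results that rest on LMO 2 are also given without it, while correlations of single pairs are given only with it. In a bulk sample, fewer cells with a transcript and less RNA per cell cannot be told apart.

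SLC39A10, the ZIP10 importer of the plasma membrane, was the leading member. Its median level was 17.1 FPKM over the 29 samples, with a range of 7.40 to 50.1 FPKM, and it was above 92.4% of all gene records. SLC39A6, which encodes ZIP6, an importer of the same subfamily, followed with a median of 4.71 FPKM and a range of 1.83 to 10.4 FPKM. SLC30A1 (ZnT1), the exporter at the plasma membrane, had a median of 2.22 FPKM, with a range of 1.12 to 4.66 FPKM.

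Both remaining members that were above 0.5 FPKM in all 29 samples were SLC30 genes of organelles. SLC30A9, linked to mitochondria, had a median of 1.76 FPKM, between 0.698 and 5.11 FPKM. SLC30A5, which acts in the early secretory pathway, had a median of 1.47 FPKM, between 0.886 and 2.74 FPKM. SLC30A5 varied least of the 5, with a standard deviation of 0.27 on the log2(FPKM + 1) scale, against 0.66 for SLC39A10.

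The other 5 members were low. SLC30A7, a Golgi transporter, had a median of 0.564 FPKM, was above 0.5 FPKM in 15 of 29 samples and reached 3.65 FPKM. SLC39A7, which releases zinc from the endoplasmic reticulum, had a median of 0.450 FPKM, was above 0.5 FPKM in 12 samples and reached 3.34 FPKM. SLC39A14, an importer that also carries iron and manganese, had a median of 0.380 FPKM and was above 0.5 FPKM in 9 samples. Each of these 3 was listed at 0 in 1 sample.

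SLC39A1 (ZIP1) and SLC30A6 (ZnT6, the partner of ZnT5) were the lowest members. SLC39A1 had a median of 0.137 FPKM and was listed at 0 in 9 samples, and SLC30A6 had a median of 0.102 FPKM and was listed at 0 in 4 samples. They were above 0.5 FPKM in 3 samples and in 1 sample, so 8 of the 10 members passed the limit of 0.5 FPKM in at least 4 of the 29 samples and the low pair was not tested for group differences. The highest value of SLC30A6, 0.602 FPKM, was below the lowest value of SLC30A5, 0.886 FPKM.

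**Figure D1:**
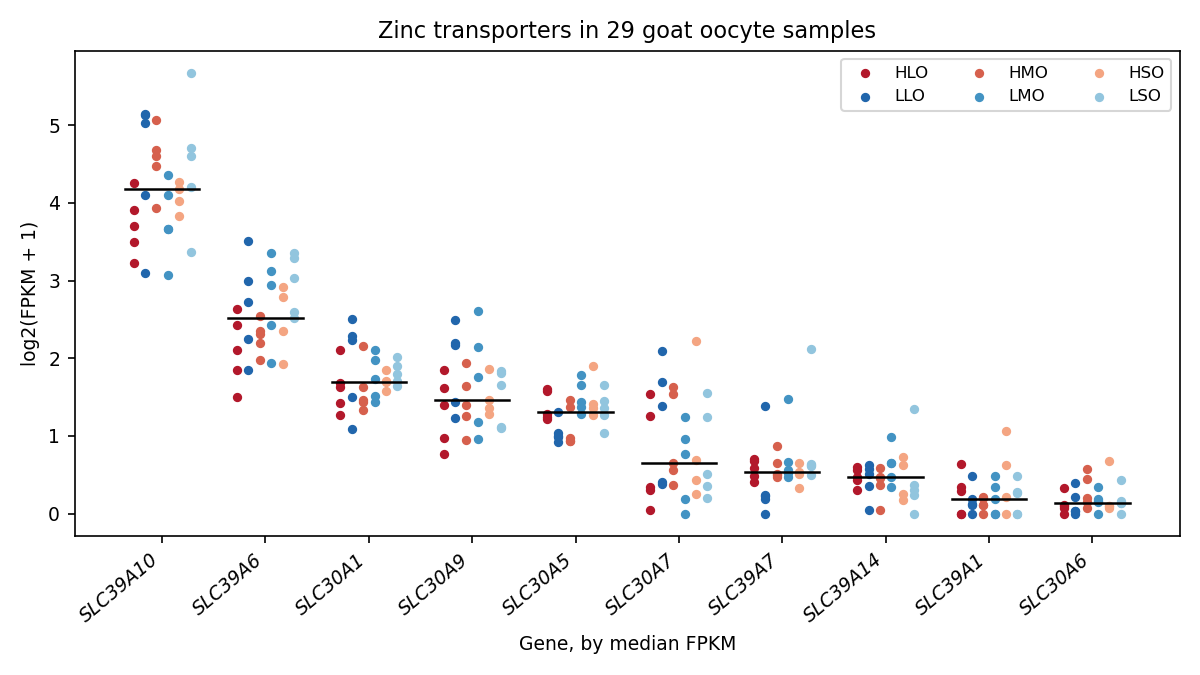
FPKM of the 10 zinc transporter genes in 29 oocyte samples, plotted as log2(FPKM + 1); each point is 1 sample, coloured by group, and the black line marks the median of all samples. SLC39A10 lies highest, with SLC39A6 second, and SLC39A1 and SLC30A6 lie near 0.

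When the members were set in order of their median, 7 of the 9 neighbouring steps differed at an adjusted p under 0.05 (permutation test with random signs of the within-sample differences, two-sided, 100000 resamples, Benjamini-Hochberg over 9 steps). SLC39A10 was above SLC39A6 in 28 of 29 samples, with a mean difference of 1.65 ± 0.60 on the log2(FPKM + 1) scale (SD, n = 29, permutation p = 1e-05, the smallest the permutations can give, adjusted p = 4.5e-05). SLC39A6 was above SLC30A1 in all 29 samples, by 0.81 ± 0.41 on the same scale. The step from SLC30A1 to SLC30A9 was small, 0.17 ± 0.42, with SLC30A1 higher in 19 of 29 samples (adjusted permutation p = 0.0442). SLC30A7 and SLC39A7 did not differ beyond their spread (adjusted permutation p = 0.150), nor did SLC39A1 and SLC30A6 (adjusted permutation p = 0.278). These orders compare different genes, so they rest on the length that each gene model gives.

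The SLC39 side held most of the members' signal. SLC39A10 alone made up a median of 57.6% of the members' summed FPKM (27.2 to 75.4%), and the SLC39 genes together 76.6% (65.5 to 87.0%). SLC39A6 gave a median of 14.4% and SLC30A1 7.48%. The summed FPKM of the members ranged from 14.4 to 68.7, with a median of 30.9.

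The ratio of SLC39A10 to SLC39A6 in a sample had a median of 4.11 and ran from 0.963 to 7.99. Sample LMO 2 was the exception in which SLC39A6 was the higher of the pair, at 7.68 FPKM against 7.40 FPKM of SLC39A10. That sample also held the highest level of SLC30A9 (5.11 FPKM) and was the sample with SLC30A7 listed at 0.

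The design compares high and low fertility oocytes within each follicle stage. In large follicles, SLC39A10 was at 14.1, 10.3, 12.1, 8.35 and 18.1 FPKM in HLO samples 1 to 5, and at 16.2, 31.6, 7.55, 34.4 and 33.9 FPKM in LLO. The LLO samples spread over a wider range, and the groups overlapped, since the lowest of these 10 values was in LLO. The fitted difference was -0.78 on the log2(FPKM + 1) scale (high minus low, SE 0.49, limma adjusted p = 0.828). With 1 sample left out it ran from -1.13 (without LLO 3) to -0.62 (without LLO 4). Of these fits, only that without LLO 3 had an unadjusted p under 0.05 for SLC39A10. Among the 6 members tested in large follicles, 0 had an unadjusted p under 0.05 by limma, against 4.14% of the 8328 genes tested, and 0 by the exact Wilcoxon test. The members' log2 differences had a median of -0.53, with 5 of 6 below 0, while the median of all genes was -0.09 with 57.6% below 0. SLC30A5 was the member with a difference above 0, at 0.34 (SE 0.23, limma adjusted p = 0.828).

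In medium follicles SLC39A10 was at 24.6, 14.3, 21.2, 23.4 and 32.4 FPKM in HMO, and at 11.7, 7.40, 11.7, 16.2 and 19.5 FPKM in LMO. All HMO samples but HMO 2 were above the highest LMO sample. This was the opposite order of the large follicles. The difference was 0.78 on the log2(FPKM + 1) scale (SE 0.34) with an unadjusted limma p under 0.05, an exact Wilcoxon p of 0.0317 and a limma adjusted p of 0.563 over all 8390 genes. Leaving out HMO 1, 3, 4 or 5 or LMO 1, 2 or 3 took the unadjusted p over 0.05, with differences between 0.60 (without LMO 2) and 0.80 (without HMO 3). So did array weights, with a difference of 0.45, and 1 fit over all samples. SLC39A10 was the 1 member of 8 tested with an unadjusted p under 0.05, beside 8.67% of all genes, and 0 members passed after adjustment, where 0.0715% of all genes did. The members' log2 differences had a median of -0.19, against -0.07 over all genes, and 6 of 8 were below 0, as were 56.5% of all genes. SLC39A6 lay the other way from SLC39A10, with a difference of -0.48 (SE 0.31, limma adjusted p = 0.654).

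In small follicles SLC39A10 was at 17.1, 13.3, 15.3 and 18.2 FPKM in HSO samples 1, 3, 4 and 5. In LSO it was at 23.2, 9.31, 25.2, 50.1 and 17.4 FPKM, so the 4 HSO samples lay within the range of LSO. The highest level of SLC39A10 in the series was that of LSO 4. The difference was -0.43 on the log2(FPKM + 1) scale (SE 0.44, limma adjusted p = 0.890). Among the 7 members tested, 0 had an unadjusted p under 0.05, against 4.41% of 8376 genes, and 0 by the exact Wilcoxon test. After adjustment 0 passed, beside 0.0119% of all genes. The difference was below 0 in 5 of the 7 and in 50.8% of all genes. In none of the 3 stages did the samples of high and low fertility separate completely for any of the 10 members.

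**Figure D2:**
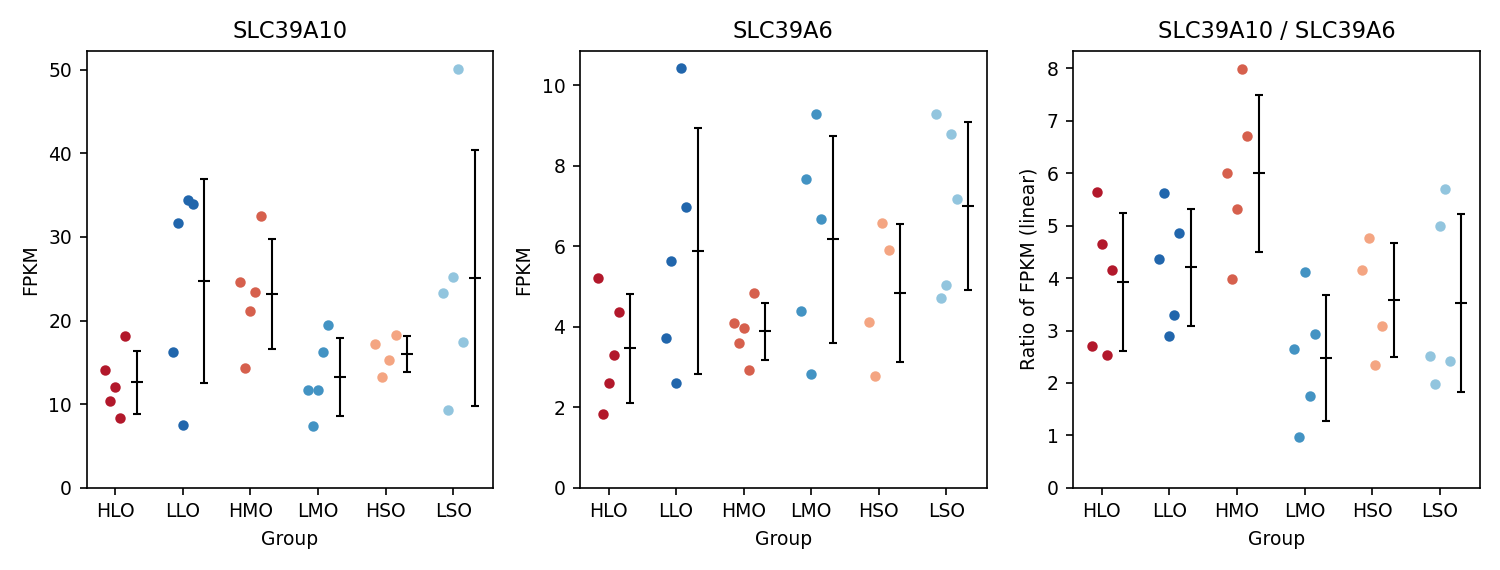
SLC39A10 FPKM, SLC39A6 FPKM and their ratio (linear scale) in the 6 groups; points are samples, the bar beside them is the mean with its SD. SLC39A10 lies higher in HMO than in LMO and the other way in large follicles, with overlapping samples.

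SLC39A6 had a difference below 0 in each of the 3 stages, as had SLC30A1 (-0.30, -0.15 and -0.11) and SLC30A9 (-0.58, -0.30 and -0.012, the last above 0 with median-of-ratios factors or quantile normalization). Without LMO 2, which held the highest SLC30A9, the medium follicle difference of SLC30A9 was -0.077. In HLO SLC39A6 was at 5.21, 1.83, 2.59, 3.29 and 4.37 FPKM, and in LLO at 3.73, 5.64, 2.60, 10.4 and 6.98 FPKM. In HMO it was at 4.08, 3.59, 3.98, 2.93 and 4.84 FPKM, and in LMO at 4.40, 7.68, 2.84, 9.27 and 6.67 FPKM. In HSO it was at 4.12, 2.79, 6.57 and 5.90 FPKM, and in LSO at 9.27, 4.71, 5.04, 8.80 and 7.17 FPKM. The means of the low fertility groups were higher in each stage, yet samples overlapped in each. Samples 4 and 5 of the 3 low fertility groups were all at 6.67 FPKM or more. Over all 29 samples the level was 4.01 ± 1.32 FPKM in high fertility (SD, n = 14) and 6.35 ± 2.46 FPKM in low fertility (SD, n = 15).

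With stage as a covariate, the fertility difference of SLC39A6 was -0.50 on the log2(FPKM + 1) scale (SE 0.18) with an unadjusted limma p under 0.05, and with stage values of -0.56, -0.48 and -0.46 for large, medium and small follicles. It did not pass the adjustment over 9692 genes (limma adjusted p = 0.423). It was the 1 member of 8 tested with an unadjusted p under 0.05, beside 9.99% of all genes, and 0 members passed after adjustment, where 0.0103% of all genes did. In 7 of 8 members the difference was below 0, and over all genes in 57.2%. The median over members was -0.12, against -0.04 over all genes. When samples were weighted by their quality, the difference of SLC39A6 was -0.54 with a limma adjusted p of 0.0415, where 7.13% of all genes passed. The limma adjusted p was up to 0.549 over the other settings and between 0.224 and 0.642 with 1 sample left out. Without LMO 2 the difference of SLC39A6 was -0.48 (limma adjusted p = 0.6335).

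No member passed the test for follicle stage. By limma's F-test with fertility as a covariate, 0 of 8 members had an unadjusted p under 0.05, and so had 1.66% of all genes. The smallest p among the members was that of SLC39A6 (limma adjusted p above 0.99). SLC39A6 had a mean of 4.67 ± 2.56 FPKM in large (SD, n = 10), 5.03 ± 2.15 in medium (SD, n = 10) and 6.04 ± 2.14 in small follicles (SD, n = 9).

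**Figure D3:**
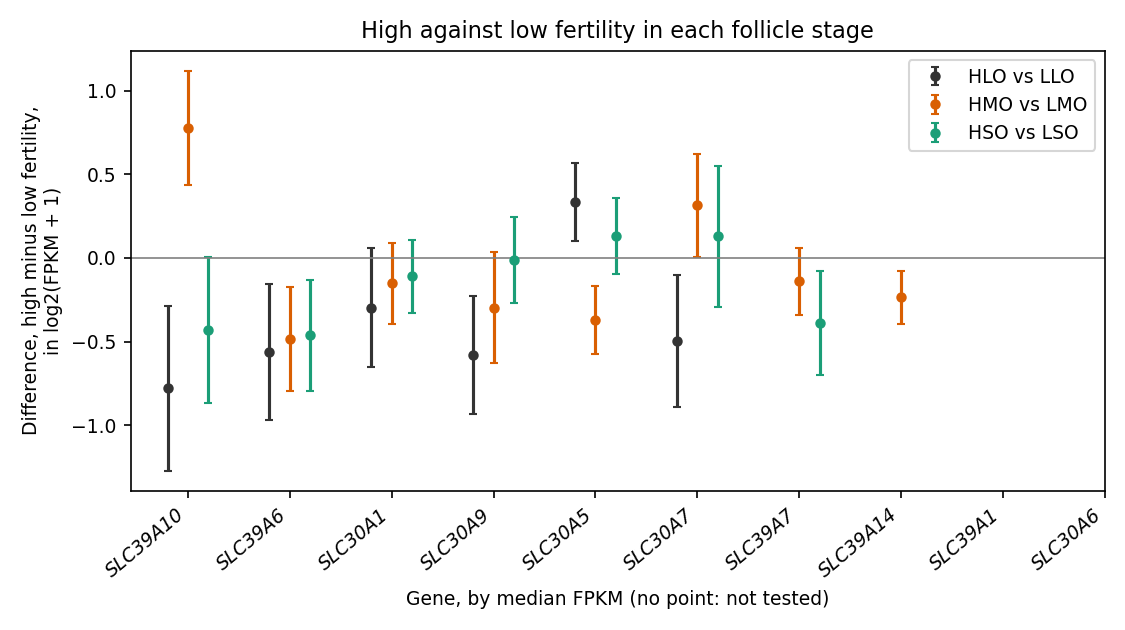
Difference of high minus low fertility on the log2(FPKM + 1) scale in large, medium and small follicles, with the limma standard error as the bar; members without a point were not tested in that stage. SLC39A6 lies below 0 in the 3 stages, and SLC39A10 lies at 0.78 in medium and below 0 in large and small follicles.

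The fertility difference varied with stage for 2 of 8 members at an unadjusted p, beside 7.89% of all genes, and 0 passed after adjustment, as 0.0% of all genes did. SLC39A10 had differences of -0.78, 0.78 and -0.43 in large, medium and small follicles (limma interaction test, adjusted p = 0.532). SLC30A5 had differences of 0.34, -0.37 and 0.13 (limma interaction test, adjusted p = 0.536), so its signs were opposite to those of SLC39A10. Without LMO 2 neither unadjusted p stayed under 0.05 (limma adjusted p = 0.734 for both). That of SLC39A10 was also lost without HMO 5, and that of SLC30A5 without HMO 1, 3 or 4 or LMO 4.

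SLC30A5 was at 1.99, 1.36, 1.33, 2.04 and 1.42 FPKM in HLO, and at 0.997, 1.47, 0.886, 0.984 and 1.05 FPKM in LLO. All LLO samples but LLO 2 were below the lowest HLO sample. In HMO it was at 0.906, 1.75, 0.902, 0.965 and 1.60 FPKM, and in LMO at 1.44, 2.43, 1.71, 2.16 and 1.58 FPKM, so here the low fertility samples were mostly higher. In HSO it ranged from 1.40 to 2.74 FPKM, with a median of 1.61, and in LSO from 1.06 to 2.14 FPKM, with a median of 1.56.

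After these values were seen, the ratio of SLC39A10 to SLC39A6 was compared between the fertility groups as a description, with no test, since the pair was chosen because its differences had opposite signs in medium follicles. A ratio within a sample does not change with the scale of that sample. In the single samples it was 6.01, 3.98, 5.32, 7.99 and 6.71 in HMO, and 2.65, 0.963, 4.11, 1.75 and 2.93 in LMO. HMO 2 at 3.98 lay below LMO 3 at 4.11, so the groups overlapped by that pair. The mean log2 ratio was 2.55 ± 0.38 in HMO and 1.15 ± 0.80 in LMO (SD, n = 5 each), a difference of 1.40, and of 1.10 to 1.62 with any 1 sample left out. The lowest of these, 1.10, was the value without LMO 2. The difference was -0.12 in large follicles and 0.11 in small follicles.

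The samples carry a number from 1 to 5 in their title, and the number went with the level of some members more than the group did. SLC30A7 was at 1.38, 0.234, 0.267, 0.0290 and 1.90 FPKM in HLO, and at 1.62, 0.330, 0.299, 2.22 and 3.27 FPKM in LLO. It was at 1.90, 0.468, 0.285, 0.564 and 2.09 FPKM in HMO, and at 0.700, 0, 0.141, 0.942 and 1.36 FPKM in LMO. It was at 0.611, 0.193, 0.348 and 3.65 FPKM in HSO, and at 0.421, 0.145, 0.279, 1.92 and 1.36 FPKM in LSO. Samples of number 5 were at 1.36 FPKM or more in all 6 groups, and those of numbers 2 and 3 were at 0.468 FPKM or less.

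By limma's F-test with group as a covariate, the number reached an adjusted p of 0.000156 for SLC30A7 and of 0.0472 for SLC39A6. These 2 of 8 members passed after adjustment, beside 50.5% of all genes, and 3 of 8 had an unadjusted p under 0.05, beside 58.0% of all genes. The third was SLC30A9 (limma adjusted p = 0.0671). Beside those shares the counts show nothing particular to the members. Without HSO 3, LLO 3 or LMO 3 the unadjusted p of SLC39A6 was over 0.05. Number accounted for 64.7% of the sum of squares of SLC30A7 on the log2 scale, and group for 9.04%. For SLC30A5 it was 6.89% and group 43.0%. The labels do not say what the number stands for. The numbers also differed in scale: the median ratio of a sample to the geometric mean of all samples, over genes above 0 in all of them, was 0.666 to 0.885 for numbers 2 and 3 and 1.05 to 1.32 for numbers 1 and 5, but 0.723 to 1.53 for number 4. Some markers passed the same test, beside 50.5% of all genes. Among them were the oocyte gene GDF9 (limma adjusted p = 7.39e-05) and the stroma genes ACTA2 (limma adjusted p = 7.32e-05) and DCN (limma adjusted p = 0.00129). Others of both kinds did not pass, among them ZP2 (limma adjusted p = 0.229), NLRP5 (limma adjusted p = 0.744), COL1A2 (limma adjusted p = 0.459) and LUM (limma adjusted p = 0.128). The summed theca and stroma markers were at 5.70 to 12.2 FPKM in numbers 2 and 3, 5.32 to 33.0 FPKM in number 1, 7.12 to 20.9 FPKM in number 4 and 19.1 to 43.4 FPKM in number 5. Their part in the members' levels was not tested. The limma adjusted p of SLC30A7 was between 2.07e-07 and 0.000716 over the 8 other settings, division by that factor among them. That of SLC39A6 was 0.367 after the division.

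**Figure D4:**
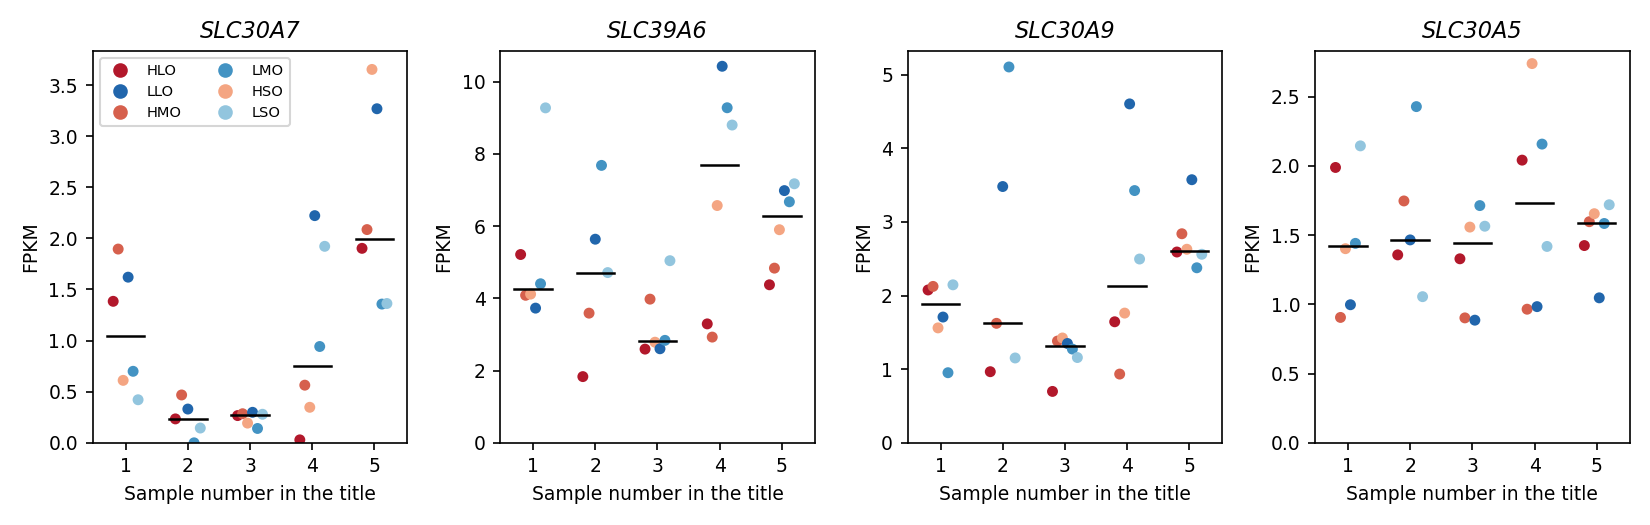
FPKM of 4 members against the number in the sample title; points are samples coloured by group and the black line is the median of a number. SLC30A7 is low in all samples of numbers 2 and 3 and high in number 5, while SLC30A5 shows no such order.

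Some pairs of members varied together across samples. Of 45 pairs, 36 had a Pearson r above 0 on log2(FPKM + 1), and 11 had both Pearson's r and Spearman's rho at an adjusted p under 0.05 (permutation tests, 100000 resamples, two-sided, Benjamini-Hochberg over the 45 pairs); all 11 were above 0. Such correlations were common among all genes, as 22.0% of genes had a rho above 0.5 with SLC39A10, 28.5% with SLC39A6 and 43.5% with SLC30A7, so the count is not particular to the members. The strongest was SLC39A6 with SLC30A9, with r = 0.77 (adjusted permutation p = 0.000225) and rho = 0.76 (adjusted permutation p = 0.00045). With the 2 samples farthest from the median of SLC39A6 left out r was 0.71, and with group and number means removed it was 0.83. SLC30A7 with SLC30A6, both of the early secretory pathway, had r = 0.76 and rho = 0.73, and r = 0.74 without the 2 farthest samples. SLC30A6 had a median of 0.102 FPKM and was above 0.5 FPKM in 1 sample, so this pair rests on values near 0. SLC39A10 and SLC39A6, whose proteins can form a heteromer, had r = 0.50 and rho = 0.48 (adjusted permutation p = 0.0230 and 0.0372).

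Sample scale moved with these correlations. With each sample divided by its scale factor, 6 pairs had an r at an adjusted p under 0.05, and 2 of the 11 pairs stayed under an adjusted p of 0.05, SLC39A6 with SLC30A9 (r = 0.62, adjusted permutation p = 0.0036) and SLC30A7 with SLC30A6 (r = 0.66, adjusted permutation p = 0.0027). SLC39A10 with SLC39A6 then had r = 0.17 (adjusted permutation p = 0.481). A pair below 0 was then the strongest of all 45, SLC30A5 with SLC30A7 (r = -0.78, adjusted permutation p = 0.00045, against -0.24 as deposited). SLC30A7 with SLC39A14 had r = -0.57 (adjusted permutation p = 0.0138, against -0.26). After removal of group and number means instead, r was -0.29 and -0.32 in these pairs (adjusted permutation p = 0.236 and 0.199). The scale factor differed between numbers, and its part in these values of r was not tested. With group and number means removed, 5 of the 11 stayed. SLC39A7 with SLC39A14 had r = 0.66 but rho = 0.34 (adjusted permutation p = 0.153), and r was 0.19 without the 2 samples farthest from the median, so it rests on those samples.

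**Figure D5:**
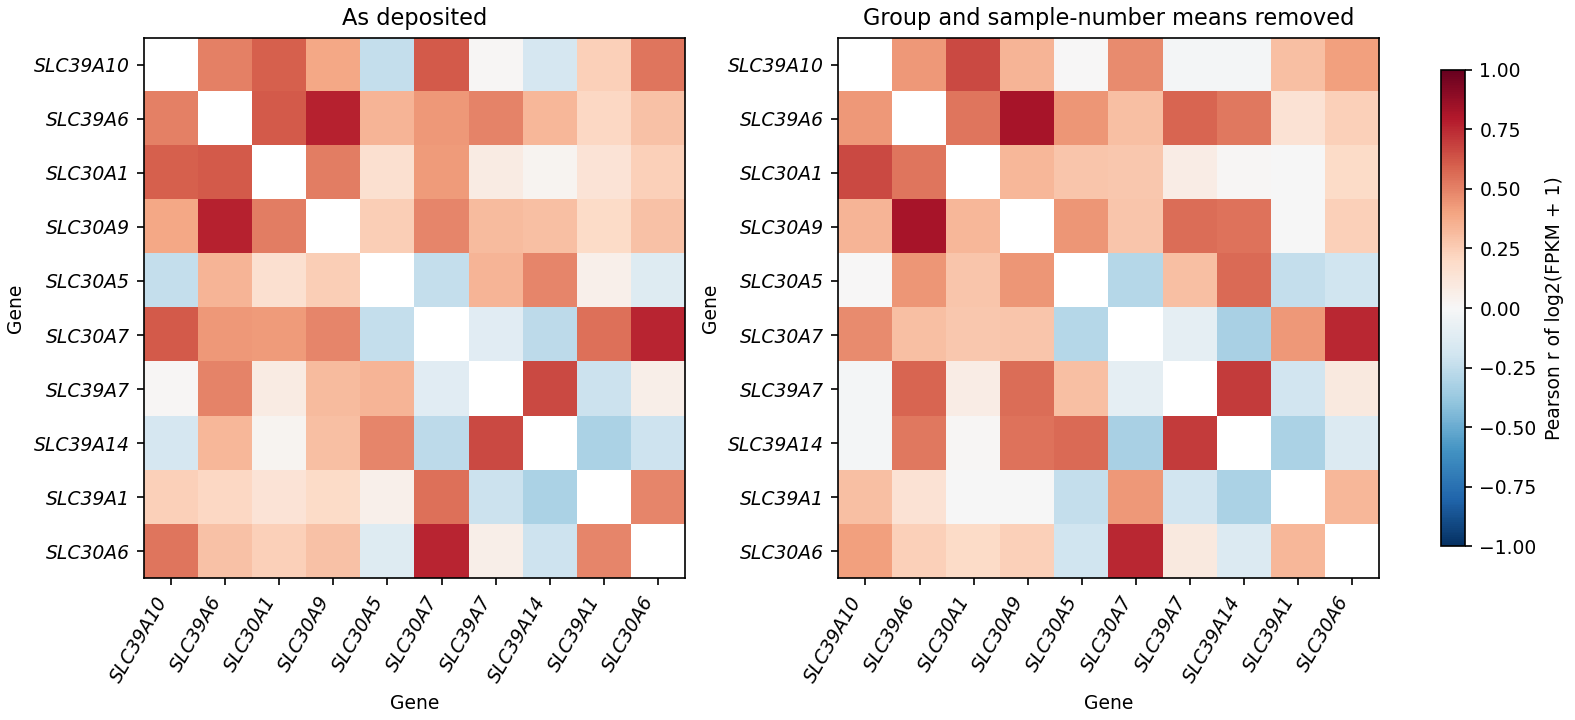
Pearson r between members over 29 samples on log2(FPKM + 1), as deposited and after group and number means were removed; red is above 0 and blue below. SLC39A6 with SLC30A9 and SLC30A7 with SLC30A6 are the darkest red in both panels.

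For each member the most alike gene of all tested was sought by Spearman's rho of FPKM over the 29 samples, among 8233 or 8234 genes with a unique symbol. SLC30A7 was most like BPNT1 (rho = 0.96), SLC39A6 most like LARP1B (0.93), SLC30A9 most like NOL10 (0.92) and SLC39A10 most like TRMT10C (0.91). SLC30A1 was most like EOGT (0.89), SLC39A7 most like SLC37A3 (0.82) and SLC30A5 most like XKRX (0.82). SLC30A6 was most like GTF2B (0.80), SLC39A1 most like ITPR2 (0.75) and SLC39A14 most like URI1 (0.66). A high rho was common for some members, since 43.5% of genes had a rho above 0.5 with SLC30A7, against 0.474% with SLC39A14; depth and sample number are shared by all genes of a sample.

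The rest of both families was mostly at or near 0. Of the 14 further SLC30 and SLC39 genes, 7 had 0 in each of the 29 samples, and 3 passed the limit of 0.5 FPKM in at least 4 samples. SLC39A12 (ZIP12), an importer, had a median of 3.49 FPKM and a range of 1.61 to 9.44 FPKM, above 8 of the 10 members by median. SLC30A4, which loads zinc into vesicles, had a median of 0.608 FPKM, and SLC39A8 had a median of 0.268 FPKM. In the 3 stages and over all stages 0 of them had an unadjusted p under 0.05 for fertility by limma. For the number, SLC39A12 and SLC39A8 passed (limma adjusted p = 0.00309 and 0.00242), as did 50.5% of all genes.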

How the data were processed

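RNA-seq was measured in 29 oocyte samples. Per the study's methods, the authors used uniquely placed reads with few mismatches and removed duplicates. The deposited FPKM table holds 1 value per gene and sample and was made with Cufflinks and the Ensembl annotation; the aligner and the genome build are not given in the sources used here. Columns were matched to samples by name, and 1 value column of no sample in use was left out. FPKM were tested on log2(FPKM + 1) with limma (3.58.1) and a trend, keeping genes that exceeded 0.5 FPKM in 4 or more fitted samples, with Benjamini-Hochberg adjustment over all genes tested. The fits compared high and low fertility in each stage and over all stages, the 3 stages, their interaction and the sample number. Fold differences are on the log2(FPKM + 1) scale, which understates changes of low genes. FPKM hold no counts, so depth is unknown and no counting interval is given. Gene symbols were taken from the table, and the 10 member symbols were all found in the RefSeq gene table.

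The members and gene lists were chosen with earlier results of these data known. Genes were named by rule: all members, the 1 most alike gene of each, and genes of the other lists with an unadjusted p under 0.05 or a median over 10 FPKM. SLC30A4, ALPL, TMC6, TMC8 and some cell type markers were named outside this rule. The procedures were tested on simulated data. Alternatives were pseudocounts of 0.1 and 0.5, no filter or a filter of 1 FPKM, array weights, 1 fit over all samples, quantile normalization, an exact Wilcoxon test, median-of-ratios factors, the number as a replicate block and each sample left out in turn; the ratio of SLC39A10 to SLC39A6 was added after seeing the data. R 4.3.3 and Python 3.11.15 were used, with matplotlib 3.10.9, scipy 1.17.1, pandas 2.3.3 and numpy 2.4.6.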

Additional observations from a re-analysis of the deposited data

Results flagged for a closer look

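In 5 of 60 combinations of a member and a group, 1 sample lay far from the others by Dixon's test. Its rate of about 1 in 20 by chance holds for independent, normally spread values, which low FPKM of the same samples need not be. SLC39A7 was at 1.62 FPKM in LLO 4, where the other LLO samples were at 0.182 FPKM or less, at 1.78 FPKM in LMO 2, and at 3.34 FPKM in LSO 1, where the other LSO samples were at 0.411 to 0.551 FPKM. SLC39A14 was at 1.55 FPKM in LSO 1. SLC30A6 was at 0.602 FPKM in HSO 5, which also held the highest SLC30A7 of the series, 3.65 FPKM.

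Other values of the 3 samples with high SLC39A7 are as follows. MT3, a zinc-binding metallothionein, was listed at 0 in LLO 4 and LSO 1 and stood at 72.0 FPKM in LMO 2, against a median of 116 FPKM over all samples; it was lower than in LMO 2 in LLO 2, LLO 5 and LSO 4 (19.5, 25.2 and 34.9 FPKM), where SLC39A7 was at 0, 0.182 and 0.411 FPKM. The summed granulosa marker level in these 3 samples was 3.89, 0.786 and 1.75 FPKM, within the range of the other samples for LLO 4 and LSO 1 and the lowest of all in LMO 2. Their part in the SLC39A7 values was not tested.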

How the results depend on the processing

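Differences of uncalled members changed sign in 29 cases, with no p under 0.05 on either side; no call changed direction. With array weights SLC30A7 was at -0.21 in medium and -0.13 in small follicles, and SLC39A14 at 0.013 over all stages; these weights moved the median of all genes to -0.26, -0.32 and -0.16 in large follicles, medium follicles and over all stages. With median-of-ratios factors SLC30A9 was at 0.042 in small follicles and SLC30A7 at 0.022 over all stages, and with quantile normalization SLC30A9 was at 0.041 in small follicles. With 1 sample left out, values in small follicles ran from -0.011 to 0.20 for SLC30A5, -0.015 to 0.34 for SLC30A7 and -0.13 to 0.071 for SLC30A9, and over all stages from -0.016 to 0.065 for SLC30A5 and -0.15 to 0.067 for SLC30A7. The difference of the log2 ratio of SLC39A10 to SLC39A6 ran from -0.27 to 0.019 in large and -0.069 to 0.31 in small follicles.

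With array weights, members with an unadjusted p under 0.05 numbered 2 in large follicles (16.5% of all genes), 2 in medium follicles (39.8%; SLC30A5 and SLC39A6, without SLC39A10), 3 over all stages (33.8%) and 1 for stage (8.43%), and 1 passed after adjustment over all stages (7.13%). The interaction count was 1 with median-of-ratios factors (9.64% of all genes) and 1 with quantile normalization (10.1%). For the sample number the count was 5 without a filter (38.1% of all genes) and 5 with array weights (81.3%); after adjustment it was 1 without a filter (27.3%), 1 with median-of-ratios factors (45.5%), 1 with quantile normalization (45.1%), 1 without the group term (46.7%) and 5 with array weights (79.5%). Member pairs that correlate numbered 14 by r, and 6 with median-of-ratios factors. Leaving out 1 sample gave 0 to 1 members in large follicles, 0 to 2 in medium, 0 to 0 in small, 1 to 2 over all stages, 0 to 0 for stage, 0 to 2 for the interaction and 1 to 4 for the number (1 to 3 after adjustment; 0 to 0 after adjustment in the others). It gave 6 to 7 steps in the order of levels and 11 to 16 pairs. Shares over all genes are not given for the fits with 1 sample left out, so their member counts show nothing particular to the members.

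Same-numbered samples deviated together in part: 55 of 70 pairs of samples with 1 number had a correlation of their deviations over 0.1 (median 0.47, lowest -0.57), against 100 of 280 other pairs, so the numbers do not pair the samples throughout. With the number as a replicate block, 1 member was called in medium follicles (16.4% of all genes) and 1 over all stages (15.1%). Without the block these counts were 1 and 1 as well, beside 8.67% and 9.99% of all genes. With the block SLC30A7 was at -0.015 in small follicles, and the log2 ratio of SLC39A10 to SLC39A6 in medium follicles was again 1.40. The depth behind low FPKM is unknown, which limits what can be said of SLC39A1 and SLC30A6.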

Other observations

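Among 18 other genes that handle zinc, 13 were in the table, 10 passed the FPKM limit, 6 had a median over 10 FPKM, and TMC6 and TMC8 were listed at 0 in all samples. ALPL, CSNK2A2 and MTF1 had medians of 0.0863, 1.17 and 1.40 FPKM. MT3 had a median of 116 FPKM, ERP44, a zinc-regulated chaperone of the early secretory pathway, 36.3 FPKM, and TMEM163, a vesicle zinc transporter, 24.5 FPKM. CSNK2B and CSNK2A1, subunits of the CK2 kinase that phosphorylates ZIP7, had 32.3 and 15.3 FPKM, and FBXO43 (EMI2), the zinc-binding inhibitor that holds the second meiotic arrest, 10.1 FPKM.

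Over all stages, 3 of 10 had an unadjusted p under 0.05 for fertility and 0 passed after adjustment by limma, beside 9.99% and 0.0103% of all genes. MT3 had a difference of 1.45, high minus low, on the log2(FPKM + 1) scale (limma adjusted p = 0.476), TMEM163 had a difference of -0.44 (limma adjusted p = 0.466) and FBXO43 one of -0.46 (limma adjusted p = 0.473). Over the 8 other settings the limma adjusted p ran from 0.0413 to 0.586 for FBXO43. It ran from 0.0575 to 0.551 for TMEM163 and from 0.144 to 0.612 for MT3. TMEM163 ranged from 15.1 to 28.9 FPKM in high and from 14.5 to 57.1 FPKM in low fertility samples. The unadjusted p of MT3 depended on LLO 4, where it was listed at 0. In large follicles its difference was 2.49 with an unadjusted limma p under 0.05, and 1.30 without LLO 4, with that p over 0.05. Over all stages the difference was 1.02 without LLO 4, again with the p over 0.05. MT3 was also low in LLO 2, LLO 5 and LSO 4, at 19.5, 25.2 and 34.9 FPKM. Low fertility samples ran from 0 to 315 FPKM and high fertility samples from 81.5 to 290 FPKM. For the sample number, 6 of 10 passed after adjustment, beside 50.5% of all genes: FBXO43, MTF1, the zinc-sensing transcription factor, CSNK2A1, CSNK2A2, ERP44 and ASTL, the zinc protease ovastacin.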
